A study of Rattus norvegicus with 12 samples.

Results

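The 10 genes described here belong to the TNF and NF-kB pathway and its feedback inhibitors. They are the ligand Tnf, the IkB-family proteins Nfkbia, Nfkbiz and Bcl3, the ubiquitin-system regulators Tnfaip3 and Birc3, and the NF-kB subunits Nfkb1, Nfkb2, Relb and Rel. They were taken by gene symbol from a table of RNA sequencing counts that lists 37209 symbols, and all 10 were in it. Of the 10, 9 were among the 17008 genes with enough counts to be tested, and Tnf was not. The RNA came from brains of Sprague Dawley rats, per the labels at postnatal day 21, in 12 bulk libraries, 3 for each of 4 groups. These were middle cerebral artery occlusion (MCAO, a stroke made by blocking the large artery of the cerebral hemisphere), its sham group coded LN, pontine infarction (PI, a stroke of the pons in the brainstem) and its sham group coded PN. Each stroke group was set against the sham group whose code begins with the same letter. No source used here gives the dissected region, the interval since the stroke, the sham procedure or any pooling of animals. One MCAO library carries a code number that matches no sample title and is called the library without a number. MCAO values are given in the order replicate 1, replicate 2, library without a number, and those of the other groups in the order of replicates 1 to 3.

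NF-kB is a family of dimeric transcription factors that IkB proteins hold inactive in the cytoplasm. Signals such as TNF binding to its receptors activate the IkB kinases, the IkB protein is degraded, and the freed dimers enter the nucleus and raise transcription of genes for cytokines, chemokines and adhesion molecules. Among the genes raised are inhibitors of the pathway itself, such as Nfkbia and Tnfaip3, so their transcripts serve as a readout of the pathway in microglia, infiltrating leukocytes, endothelium and other cells of injured brain.

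The binding sequence of NF-kB dimers is known as the kappaB site, and its consensus was looked for in the promoters of the members, from 250 bases before to 50 bases after the annotated gene start. RefSeq promoter entries of the GRCr8 rat assembly matched 8 of the 10 members by symbol (Relb and Birc3 did not match), and 7 of the 8 held at least 1 match to the 10-base kappaB consensus on either strand, Tnf being the exception in this window. Over all 33469 promoters of the same length, 7.51% held a match, and over the 12774 promoters of tested genes 10%. The 250 bases before the start are shown for Bcl3, Nfkb2, Nfkbia and Tnfaip3, an activating cofactor, a subunit and a pair of inhibitors, since these are where the matched letters can be read in context. They are written 5′ to 3′ on the gene's strand, and capitals mark a match to the consensus on either strand.
Bcl3 (chr1:88613556-88613805, minus strand): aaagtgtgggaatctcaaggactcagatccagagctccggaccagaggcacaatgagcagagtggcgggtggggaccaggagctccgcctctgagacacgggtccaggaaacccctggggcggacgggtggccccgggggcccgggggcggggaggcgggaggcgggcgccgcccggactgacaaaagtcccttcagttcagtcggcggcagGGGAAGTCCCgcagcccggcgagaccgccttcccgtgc
Nfkb2 (chr1:255108124-255108373, plus strand): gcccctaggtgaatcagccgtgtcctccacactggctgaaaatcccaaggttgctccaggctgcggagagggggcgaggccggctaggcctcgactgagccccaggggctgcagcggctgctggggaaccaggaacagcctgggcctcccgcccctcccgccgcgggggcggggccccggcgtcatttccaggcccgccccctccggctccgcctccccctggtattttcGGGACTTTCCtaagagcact
Nfkbia (chr6:78597073-78597322, minus strand): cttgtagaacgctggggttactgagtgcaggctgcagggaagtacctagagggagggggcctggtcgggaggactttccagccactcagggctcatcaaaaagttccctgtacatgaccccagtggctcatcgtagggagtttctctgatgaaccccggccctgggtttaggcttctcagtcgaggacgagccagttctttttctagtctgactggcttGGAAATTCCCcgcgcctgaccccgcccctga
Tnfaip3 (chr1:15543980-15544229, minus strand): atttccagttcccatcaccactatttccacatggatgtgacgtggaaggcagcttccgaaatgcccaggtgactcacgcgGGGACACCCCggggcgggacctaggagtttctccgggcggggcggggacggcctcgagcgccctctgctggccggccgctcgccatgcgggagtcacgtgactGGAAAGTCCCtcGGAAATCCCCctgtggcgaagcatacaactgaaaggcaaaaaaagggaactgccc
For Nfkbiz, Nfkb1 and Rel only 30 bases around a match are shown, to set the matched letters of the other members beside these.
Nfkbiz (chr11:58251698-58251727, plus strand): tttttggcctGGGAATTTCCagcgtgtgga
Nfkb1 (chr2:226805440-226805469, minus strand): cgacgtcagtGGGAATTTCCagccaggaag
Rel, site farther from the start (chr14:101922138-101922167, minus strand): gcgcgcccccGGGAGCTCCCCgcgcgagcg
Rel, site nearer to the start (chr14:101922001-101922030, minus strand): cgtaggcagcGGGAAATCCCCccccgttcc
The letters matched in Nfkbiz and Nfkb1 were identical, and those in Nfkbia are their reverse complement. In Bcl3, and at 1 place in Tnfaip3, the same 10 letters matched on both strands, and in Rel overlapping matches on both strands ran together into a stretch of 11 letters at each of 2 places. A match describes these letters and was not tested for binding.

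**Figure D1:**
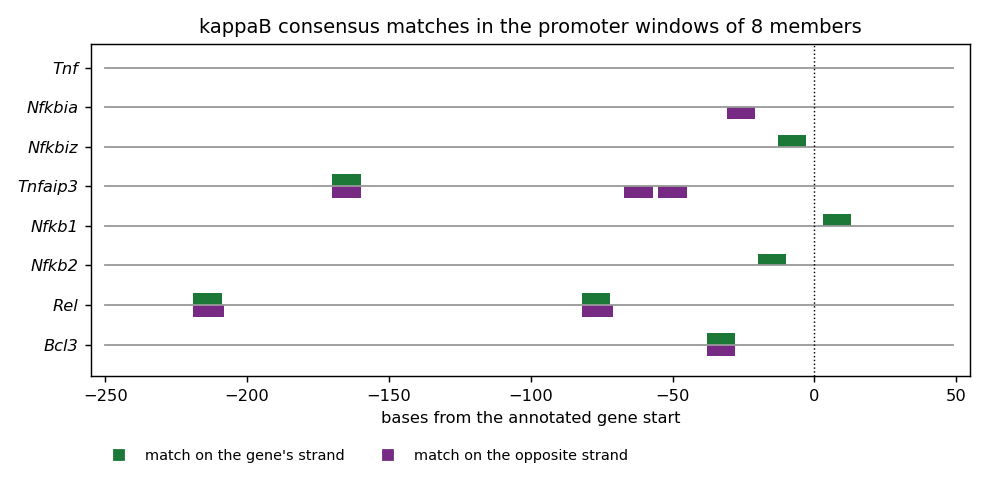
Positions of matches to the kappaB consensus in the promoter windows of the 8 members with an entry, in bases from the annotated gene start; green boxes are matches on the gene's strand and purple boxes matches on the opposite strand. Tnfaip3 had 3 places and Rel 2, the windows of Nfkbia, Nfkbiz, Nfkb1, Nfkb2 and Bcl3 had 1 each, and that of Tnf had none.

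The libraries held 19805815 to 40400676 counts. Levels are given as CPM, read counts normalised to library size, and are not compared between genes, since transcript lengths were not used. Neuron markers summed to between 2454 and 6390 CPM over the libraries, and so markers of the labelled tissue were present in all 12. Forebrain markers summed to 140 to 283 CPM in MCAO and 264 to 367 CPM in sham LN, against 5.47 to 7.25 CPM in PI and 11 to 11.6 CPM in sham PN, while hindbrain markers summed to 6.02 to 24.9 CPM in MCAO and 4.6 to 6.66 CPM in sham LN, against 106 to 226 CPM in PI and 164 to 254 CPM in sham PN. The kind of stroke and the brain region therefore cannot be told apart. Over the 9 tested members, the highest library of a group was 2.70 to 8.63 times the lowest in MCAO, 1.05 to 2.18 times in sham LN, 1.70 to 14.4 times in PI and 1.05 to 4.19 times in sham PN.

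The first comparison, of MCAO with sham LN, asked how the pathway's transcripts stood after this stroke. All 9 tested members rose, and in each of the 9 every MCAO library lay above every sham LN library. The changes ranged from 1.45 (Rel) to 6.34 (Bcl3) on the log2 scale, with a median of 3.35, against a median of -0.00 over all tested genes. Among all tested genes 12.5% were called higher and 6.07% lower at an adjusted p under 0.05 (edgeR quasi-likelihood test), and 20.4% had all 3 MCAO libraries above all 3 shams. At an unadjusted p under 0.05 there were 35.6%, and DESeq2 called 27.0% and limma voom 16.7%, in either direction. In bulk tissue, fewer cells of a type and less RNA per cell cannot be told apart, and the same holds for more of either.

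The ligand Tnf, the cytokine that gives the pathway its name, was near the limit of detection. It had 2, 0 and 8 counts in the MCAO libraries, and 0, 2 and 0 counts in sham LN replicates 1 to 3. Summed, 10 counts in MCAO stood against 2 in sham LN, a ratio of 7.38 with a 95% counting interval of 1.57 to 69.3. That interval covers counting error only, and 8 of the 10 counts came from 1 library. Tested with no filter on low counts, Tnf did not pass (edgeR adjusted p = 0.43).

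The IkB-family genes come next. Nfkbia encodes IkB-alpha, the inhibitor that holds NF-kB dimers in the cytoplasm and is itself induced by them. It had 437 and 129 CPM in MCAO replicates 1 and 2 and 187 CPM in the MCAO library without a number, against 35.9, 35.1 and 36.9 CPM in sham LN. The lowest MCAO library was more than 3-fold above the highest sham, while the 3 shams lay within 1.05-fold of each other. The log2 change of Nfkbia was 2.80 ± 0.64 (SE, edgeR adjusted p = 0.0145). Nfkbiz, a nuclear IkB protein that modifies which NF-kB target genes are transcribed, had 102 and 19.0 CPM in MCAO replicates 1 and 2 and 36.8 CPM in the library without a number, against 1.61, 2.45 and 2.79 CPM in sham LN. All 3 MCAO libraries were well above the shams, but replicate 1 was 5.38-fold above replicate 2. Its log2 change was 4.53 ± 1.06 (edgeR adjusted p = 0.0151). Bcl3, a nuclear IkB protein that acts as a cofactor on dimers of the Nfkb1 and Nfkb2 products, had 73.1, 12.1 and 49.2 CPM in the MCAO libraries, against 0.711, 0.519 and 0.382 CPM in sham LN. Its transcript was close to absent in the shams and the lowest MCAO library was still far above them. Bcl3 had the largest change of the 9 tested members, a log2 change of 6.34 ± 0.99 (edgeR adjusted p = 0.00288).

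The ubiquitin-system regulators moved in the same direction. Tnfaip3 encodes a ubiquitin-editing enzyme that shuts down signalling from the TNF receptor. It had 247, 28.7 and 106 CPM in the MCAO libraries, against 13.8, 12.5 and 11.3 CPM in sham LN. Replicate 1 was 8.63-fold above replicate 2, the widest spread of any member within MCAO, yet the groups did not overlap. The log2 change of Tnfaip3 was 3.35 ± 0.84 (edgeR adjusted p = 0.0201). Birc3 encodes a ubiquitin ligase of the IAP family that works at the TNF receptor and restrains the noncanonical pathway. It had 75.9, 10.4 and 34.2 CPM in the MCAO libraries, against 0.316, 0.667 and 0.688 CPM in sham LN. As with Bcl3, the shams were under 1 CPM and every MCAO library above 10 CPM. Its log2 change was 6.19 ± 1.18 (edgeR adjusted p = 0.00656). Birc3 has a closely related neighbouring gene, Birc2, and no source used here says how the authors' counting divided shared reads. Birc2 itself, named for this reason, averaged 58.7 ± 25.3 CPM in MCAO and 29.2 ± 3.07 CPM in sham LN (SD, n = 3 libraries each) and did not pass (edgeR adjusted p = 0.0734).

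Of the NF-kB subunits, Nfkb2 and Relb form the dimer of the noncanonical pathway. Nfkb2, whose precursor protein also acts as an inhibitor until it is processed, had 129.6, 20.9 and 64.9 CPM in the MCAO libraries, against 6.16, 6.08 and 4.17 CPM in sham LN. Relb, the partner of the processed Nfkb2 protein, had 34.9, 8.14 and 31.1 CPM in MCAO and 2.92, 3.22 and 2.41 CPM in sham LN, in the same order of libraries. Both stood above all shams in every MCAO library, with the lowest value in replicate 2. The log2 change was 3.71 ± 0.67 for Nfkb2 (edgeR adjusted p = 0.00535) and 3.11 ± 0.56 for Relb (edgeR adjusted p = 0.00523). Nfkb1, the DNA-binding subunit of the canonical dimer, had 123, 32.0 and 88.8 CPM in MCAO, against 24.5, 25.3 and 26.8 CPM in sham LN. In MCAO replicate 2 it was only 1.25-fold above the sham mean. Its log2 change was 1.67 ± 0.38 (edgeR adjusted p = 0.0135). Rel encodes c-Rel, a subunit with a transactivation domain that is prominent in lymphoid and myeloid cells. Rel had 9.24, 4.05 and 10.9 CPM in MCAO, against 3.85, 2.45 and 2.52 CPM in sham LN, and was the only one of the 9 tested members highest in the library without a number. The gap between the lowest MCAO library and the highest sham was narrow. The log2 change of Rel was 1.45 ± 0.38 (edgeR adjusted p = 0.0245), the smallest of the 9.

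**Figure D2:**
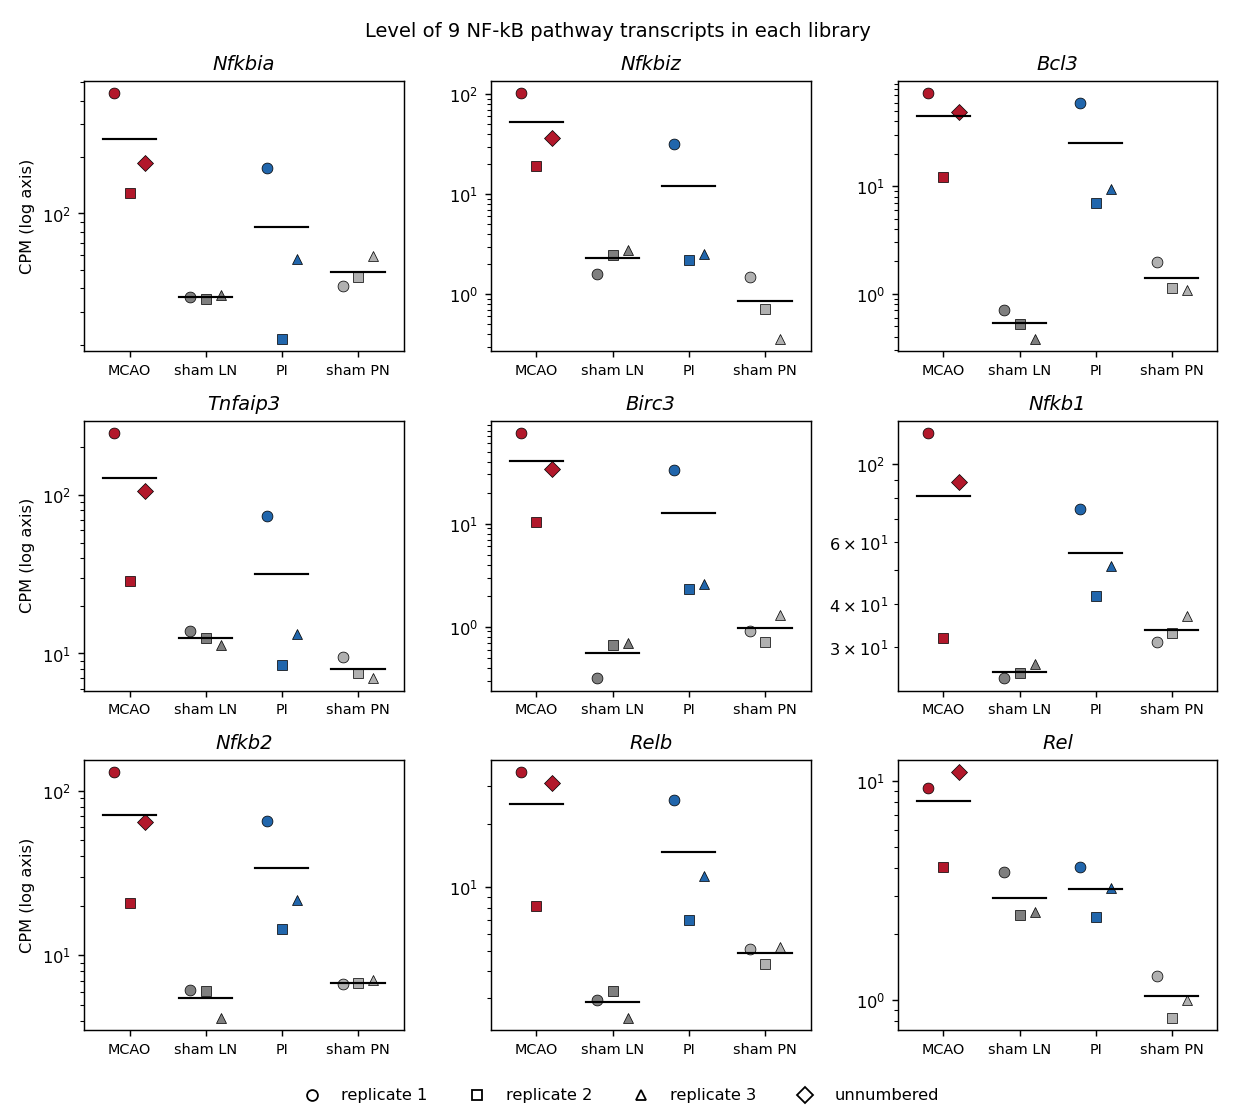
Level of the 9 tested members in each library, in CPM on a log axis that differs between panels; symbols give the replicate (a diamond for the MCAO library without a number), horizontal bars the mean of the 3 libraries of a group. In all 9 panels the MCAO libraries lie above the sham LN libraries, and Nfkbia and Tnfaip3 are the 2 genes whose PI and sham PN libraries overlap.

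Nfkb2, Relb, Bcl3 and Birc3 passed whichever of the 6 MCAO and sham LN libraries was left out. The count of members called fell to 4 without MCAO replicate 1 or sham LN replicate 3 and to 5 without sham LN replicate 1 or 2. Over all tested genes those called higher fell as well, from 2131 to 949 without MCAO replicate 1. They fell to 937, 1124 and 965 without sham LN replicates 1 to 3, so the loss was not particular to the members. Log2 changes of the 9 lay between 1.16 and 6.69 over all 6 omissions.

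PI was compared with sham PN for the same question in the other stroke. Of the 9 tested members 2 rose, Bcl3 and Rel, and 7 did not pass; DESeq2 called 6 and limma voom 0. All 9 fitted changes were positive, with a median log2 change of 1.99, against -0.08 over all tested genes, and in 7 of the 9 every PI library lay above every sham PN library. Among all tested genes 3.21% were called higher and 0.870% lower, and 13.3% had all 3 PI libraries above all 3 shams. At an unadjusted p under 0.05 there were 21.6%, and DESeq2 called 10.7% and limma voom 1.85%, in either direction.

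Tnf had 8, 0 and 0 counts in PI replicates 1 to 3 and 0 counts in each sham PN library. With the sham group set at 3 counts in sum, the limit that a count of 0 allows, it was at least 2.27-fold higher, but the 95% counting interval of the ratio began lower, at 1.45. All 8 counts came from replicate 1. With no filter on low counts it did not pass (edgeR adjusted p = 0.407).

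Bcl3 had 58.8, 6.92 and 9.34 CPM in PI replicates 1 to 3, against 1.98, 1.13 and 1.08 CPM in sham PN. Replicate 1 was 8.49-fold above replicate 2, and the lowest PI library was still above the shams. The log2 change of Bcl3 was 4.16 ± 0.88 (edgeR adjusted p = 0.0256). Rel had 4.05, 2.39 and 3.25 CPM in PI, against 1.29, 0.831 and 1.01 CPM in sham PN. It showed the least spread of the 9 members within PI, 1.70-fold from lowest to highest, and its groups did not overlap. Its log2 change was 1.62 ± 0.40 (edgeR adjusted p = 0.0458). The PI levels of Rel overlapped with those of the sham LN libraries, which had 2.45 to 3.85 CPM, and with all 6 shams as 1 control group Rel did not pass (log2 change 0.69).

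The other 7 members were carried by PI replicate 1 to different degrees. Nfkbiz had 31.6, 2.20 and 2.54 CPM in PI replicates 1 to 3, against 1.5, 0.718 and 0.359 CPM in sham PN. Birc3 had 33.2, 2.32 and 2.58 CPM in PI, against 0.903, 0.718 and 1.29 CPM in sham PN. Replicate 1 was 14.4-fold above replicate 2 in Nfkbiz and 14.3-fold in Birc3, and replicates 2 and 3 were themselves above all shams. The log2 changes were 3.82 ± 1.08 for Nfkbiz (edgeR adjusted p = 0.0712) and 3.69 ± 1.06 for Birc3 (edgeR adjusted p = 0.0736). Nfkb2 had 65.9, 14.4 and 21.7 CPM in PI, against 6.71, 6.76 and 7.04 CPM in sham PN. Relb had 25.9, 6.99 and 11.3 CPM in PI, against 5.12, 4.35 and 5.21 CPM in sham PN. In these subunits of the noncanonical pathway all PI libraries were above the shams. In replicate 2, the lowest, Nfkb2 was 2.10 times and Relb 1.43 times the sham mean. The log2 change was 2.31 ± 0.63 for Nfkb2 (edgeR adjusted p = 0.0642) and 1.58 ± 0.53 for Relb (edgeR adjusted p = 0.113). Nfkb1 had 74.7, 41.9 and 51.4 CPM in PI, against 31.2, 32.9 and 36.8 CPM in sham PN, a log2 change of 0.74 ± 0.37 (edgeR adjusted p = 0.277). It did not overlap with its shams, but the change was the smallest of the 9.

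The cytoplasmic inhibitor and the TNF receptor regulator were the 2 members whose groups overlapped. Nfkbia had 176, 21.5 and 57.2 CPM in PI replicates 1 to 3, against 40.9, 46.1 and 59.6 CPM in sham PN. Only replicate 1 was above the shams, and replicate 2 was below all 3 of them. Its log2 change was 0.79 ± 0.61 (edgeR adjusted p = 0.476). Tnfaip3 had 73.7, 8.44 and 13.3 CPM in PI, against 9.5, 7.48 and 6.97 CPM in sham PN, with replicate 2 inside the sham range. Its log2 change was 1.99 ± 0.80 (edgeR adjusted p = 0.179).

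The PI calls depended on single libraries. Without PI replicate 1, and likewise without sham PN replicate 1, 2 or 3, no member was called. Without PI replicate 3 Bcl3 alone was called, and without PI replicate 2 there were 5 calls. Calls over all tested genes moved as well, from 546 higher with all libraries to 142, 45 and 6 without sham PN replicates 1 to 3. Higher genes numbered 387, 773 and 244 without PI replicates 1 to 3. The loss of calls was thus not particular to the members. The log2 change without PI replicate 1 was 2.54 for Bcl3 and 1.43 for Rel. It was 1.48 for Nfkbiz, 1.39 for Nfkb2, 1.32 for Birc3, 0.90 for Relb, 0.47 for Nfkb1, 0.44 for Tnfaip3 and -0.32 for Nfkbia. The median of the 9 was then 1.32, against 1.99 with all libraries.

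**Figure D3:**
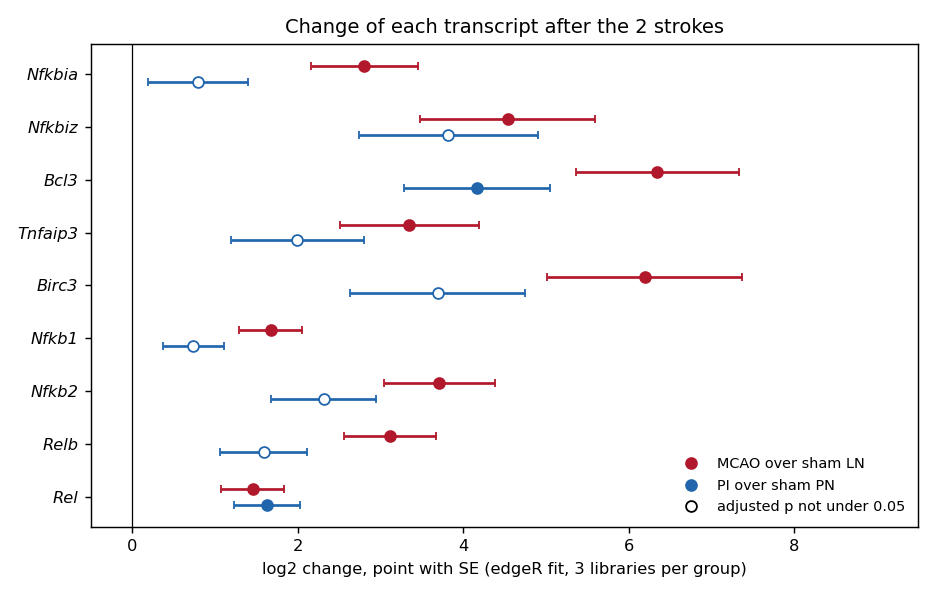
Log2 change of each tested member with its SE from the edgeR fit, MCAO over sham LN in red and PI over sham PN in blue, with 3 libraries per group; filled points passed the adjusted threshold and open points did not. All 9 red points are filled, and among the blue points those of Bcl3 and Rel.

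The response to MCAO was set against the response to PI by testing the difference between the 2 changes. No member was called, and 0% of all tested genes were (edgeR quasi-likelihood test, 0 of 17008). At an unadjusted p under 0.05 there was 1 member of 9, against 10.7% of all tested genes, and DESeq2 and limma voom called 0 members as well, though DESeq2 called 238 genes in all (1.43%). The fitted difference was positive, toward a larger change after MCAO, in 8 of the 9 members, with a median of 1.4 on the log2 scale and 0.08 over all tested genes. The member under the unadjusted threshold was Nfkbia, with a difference of 2.01 ± 0.86 (SE, unadjusted p = 0.0387, edgeR adjusted p = 0.44). Birc3 had the largest difference, 2.5 ± 1.45 (edgeR adjusted p = 0.569), and that of Bcl3 was 2.18 ± 1.2 (edgeR adjusted p = 0.549). Rel was the exception in sign, at -0.17 ± 0.54 (edgeR adjusted p = 0.939). So the passing of 9 members in one stroke and of 2 in the other is not shown to be a difference between the strokes.

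The sham groups were compared with each other for the level of the pathway without a stroke. Rel alone passed: it averaged 2.94 ± 0.787 CPM in sham LN and 1.04 ± 0.231 CPM in sham PN (SD, n = 3 libraries each), a log2 change of 1.5 ± 0.40 (edgeR adjusted p = 0.0194). The median log2 change of the 9 members was -0.40, against -0.11 over all tested genes, of which 21.3% were called in either direction. In all 9 members the 3 libraries of one sham group lay on one side of the other 3, while over all tested genes 21.7% lay wholly above and 29.2% wholly below. Nfkbiz, Tnfaip3 and Rel were the 3 above, and Nfkbia, Nfkb1, Nfkb2, Relb, Bcl3 and Birc3 the 6 below. The largest of the changes that did not pass were those of Nfkbiz, 1.42 ± 1.06 (edgeR adjusted p = 0.387), and Bcl3, -1.34 ± 0.93 (edgeR adjusted p = 0.349). Rel lost the call without sham LN replicate 1 or sham PN replicate 2 or 3, and with the 6 sham libraries fitted alone 6 of the 9 members passed, Nfkbiz, Tnfaip3 and Rel higher in sham LN and Nfkb1, Relb and Bcl3 lower, where 39.9% of all genes tested in that fit passed.

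The stroke libraries kept much the same order across the members. In MCAO, replicate 1 was highest in 8 of the 9 tested members and replicate 2 lowest in all 9, and the median log2 level over the sham mean was 4.30 in replicate 1, against 1.84 in replicate 2 and 3.42 in the library without a number. In PI, replicate 1 was highest and replicate 2 lowest in all 9, with medians of 3.21, 1.07 and 1.38 in replicates 1 to 3. Bcl3 had the highest or second-highest value over its shams in each of the 6 stroke libraries. Beside this order, 12 markers of neutrophils and monocytes summed to 677, 57.6 and 297 CPM in the MCAO libraries and to 3.56 to 4.67 CPM in sham LN. The same markers summed to 215, 22.4 and 67.8 CPM in PI replicates 1 to 3 and to 4.10 to 5.97 CPM in sham PN. All 8 tested markers of this list rose after MCAO and 3 after PI by edgeR, while DESeq2 called 8 after MCAO and 7 after PI, and limma voom 4 after MCAO and 0 after PI. Of the 8, only Csf3r averaged above the filter's level of 0.387 CPM in sham LN. The others passed the filter with the stroke libraries, where they were high, so that those tested rose was partly fixed beforehand. At 0 counts were 1 to 2 of the 12 in MCAO libraries (Ltf, and Mpo in 2 of them), 1 to 3 in PI libraries (among Ltf, Mpo and Fpr1), and 4 to 7 in sham libraries, where Elane and Fpr1 were at 0 in all 6. The sum was thus highest where the members were highest and lowest where they were lowest in both strokes.

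Markers of activated phagocytes did not keep that order in PI. The 10 of them, all of which rose after both strokes, summed to 3278, 546 and 1806 CPM in MCAO and to 38.3 to 48.7 CPM in sham LN. In PI they summed to 2496, 969 and 4842 CPM in replicates 1 to 3 and in sham PN to 157 to 187 CPM, so that PI replicate 3 was highest, not replicate 1. Among the 10, Clec7a and Itgax averaged under the filter's level of 0.387 CPM in both sham groups and passed it with the stroke libraries. Resting microglia markers summed to 297, 403 and 283 CPM in MCAO and 345 to 409 CPM in sham LN, and to 353, 625 and 1185 CPM in PI and 356 to 393 CPM in sham PN. Of 9 tested resting microglia markers, 1 rose (Siglech) and 1 fell (Tmem119) after MCAO, and 1 rose after PI (Csf1r). Siglech was near the limit of detection, with 0 counts in every sham library and 0.857 ± 1.08 CPM in MCAO (SD, n = 3 libraries). That is under the 1 CPM set for naming a gene, and it passed the filter with the stroke libraries. Of the other lists, 1 of 3 tested lymphocyte markers rose and 3 of 6 astrocyte and 2 of 5 oligodendrocyte markers fell after MCAO, and 1 oligodendrocyte marker, Mog, fell after PI. Red cell markers summed to 57.9 to 90.8 CPM in MCAO and 11.3 to 97.3 CPM in sham LN, and to 122, 26.3 and 127 CPM in PI replicates 1 to 3 and 20.9 to 24.5 CPM in sham PN. Both tested red cell markers, Hba1 and Hba2, were called after PI by DESeq2 and by neither edgeR nor limma voom. Of 8 endothelial markers 0 passed after MCAO by edgeR, with 4 under an unadjusted p of 0.05, 2 called by DESeq2 and 0 by limma voom. The part of these cell types in the members' levels was not tested.

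**Figure D4:**
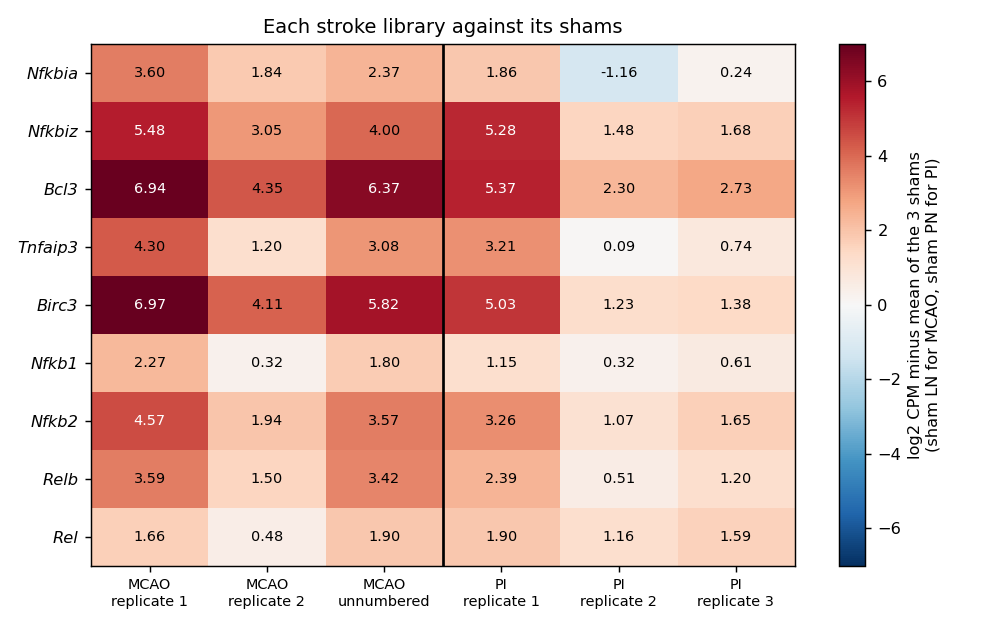
Level of each tested member in each stroke library as log2 CPM minus the mean of its 3 sham libraries, sham LN for MCAO and sham PN for PI, with red above and blue below the shams; the column marked unnumbered is the MCAO library without a number. Columns of replicate 1 are darkest and those of replicate 2 palest within each stroke, and Nfkbia in PI replicate 2 is the only value below the mean of its shams.

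Other genes of the pathway were followed in lists chosen by role. Of 10 tested receptors and adaptors, 5 rose after MCAO, with a list median of 0.90 on the log2 scale, and 2 after PI, with a median of 0.72. DESeq2 called 5 after MCAO and 4 after PI, and limma voom 5 after MCAO and 0 after PI. Tnfrsf1b, the TNF receptor of leukocytes and microglia, averaged 171 ± 148 CPM in MCAO and 3.90 ± 0.769 CPM in sham LN (SD, n = 3 libraries each, log2 change 5.45 ± 0.77, edgeR adjusted p = 0.00238). In PI it averaged 30.1 ± 22.0 CPM, against 4.06 ± 0.514 CPM in sham PN (log2 change 2.89 ± 0.70, edgeR adjusted p = 0.0434). Tnfrsf1a, the widely expressed TNF receptor with a death domain, averaged 89.8 ± 40 CPM in MCAO and 18.5 ± 2.34 CPM in sham LN (log2 change 2.27 ± 0.31, edgeR adjusted p = 0.00214), and 61.1 ± 17.0 CPM in PI and 24.8 ± 1.23 CPM in sham PN (log2 change 1.30 ± 0.31, edgeR adjusted p = 0.0387). Traf1, an adaptor that is itself an NF-kB target, rose by 3.25 ± 0.56 after MCAO (edgeR adjusted p = 0.00443), and Ripk1, the kinase of the TNF receptor complex, by 1.38 ± 0.32 (edgeR adjusted p = 0.0139), both on the log2 scale. The MCAO calls of Tnfrsf1b, Tnfrsf1a and Traf1 held whichever library was left out, that of Ripk1 was lost in 3 of the 6 omissions, and the PI calls of both receptors in 5 of the 6.

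Of 9 tested kinases 1 rose after MCAO by edgeR (list median 0.45), while DESeq2 called 2 and limma voom 1. After PI 0 passed (median 0.07), with 3 under an unadjusted p of 0.05, 2 called by DESeq2 and 0 by limma voom. The kinase that rose by edgeR was Map3k8, a kinase held by the Nfkb1 precursor and released on signalling, which averaged 13.7 ± 10.2 CPM in MCAO and 0.779 ± 0.151 CPM in sham LN (log2 change 4.14 ± 0.73, edgeR adjusted p = 0.00499). The IkB kinase subunits Chuk and Ikbkb, which phosphorylate IkB proteins, are named after their values were seen. They did not pass after MCAO, with log2 changes of 0.45 ± 0.21 for Chuk (edgeR adjusted p = 0.154) and 0.46 ± 0.20 for Ikbkb (edgeR adjusted p = 0.130). The other Rel and IkB genes, Rela, Nfkbib, Nfkbie and Nfkbid, all rose after MCAO by edgeR (4 of 4, median 1.18). DESeq2 called 4 of them after MCAO and limma voom 2. After PI 0 passed (median 0.42), with 1 under an unadjusted p of 0.05 and 0 called by DESeq2 and by limma voom. Rela, the transactivating subunit of the canonical dimer, averaged 65.0 ± 23.3 CPM in MCAO and 31.6 ± 4.26 CPM in sham LN (log2 change 1.04 ± 0.26, edgeR adjusted p = 0.0211), and Nfkbid, a nuclear IkB protein, 6.96 ± 3.93 CPM in MCAO and 1.21 ± 0.158 CPM in sham LN (log2 change 2.52 ± 0.40, edgeR adjusted p = 0.00308). Nfkbie and Nfkbib, which encode further cytoplasmic inhibitors, rose by 1.32 ± 0.37 (edgeR adjusted p = 0.0325) and by 0.77 ± 0.24 (edgeR adjusted p = 0.0468) on the log2 scale. Nfkbid held its call in every omission of a library, whereas Rela, Nfkbib and Nfkbie kept theirs in 1 of 6.

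Of 14 other tested feedback regulators 5 rose and 1 fell after MCAO by edgeR (median 0.28). DESeq2 called 7 and limma voom 4 after MCAO, in either direction. After PI 0 passed (median 0.15), with 3 under an unadjusted p of 0.05, 2 called by DESeq2 and 0 by limma voom. Zc3h12a, an RNase that degrades cytokine transcripts, averaged 41.5 ± 32.6 CPM in MCAO and 1.28 ± 0.201 CPM in sham LN (log2 change 5.01 ± 0.92, edgeR adjusted p = 0.00583). Zfp36, which encodes tristetraprolin, a protein that destabilises Tnf mRNA, averaged 167 ± 126 CPM in MCAO and 7.6 ± 1.32 CPM in sham LN (log2 change 4.45 ± 0.75, edgeR adjusted p = 0.00405). Both genes were at a low level in the shams, and both proteins act on cytokine transcripts. Tnip2, a ubiquitin-binding partner of Tnfaip3, rose by 2.28 ± 0.45 on the log2 scale (edgeR adjusted p = 0.00761), and its relative Tnip1 by 1.53 ± 0.46 (edgeR adjusted p = 0.041). The gene that fell was Cyld, a deubiquitinase that restrains NF-kB signalling, with 110.0 ± 47.4 CPM in MCAO and 220.0 ± 36.7 CPM in sham LN (log2 change -1.0 ± 0.30, edgeR adjusted p = 0.0397). The calls of Zc3h12a, Zfp36 and Tnip2 held in every omission of a library, and those of Tnip1 and Cyld in 1 of 6. Between the shams, Cyld was higher in LN than in PN by 1.81 ± 0.31 on the log2 scale (edgeR adjusted p = 0.00158), as was Map3k14, the kinase of the noncanonical pathway, by 1.11 ± 0.18 (edgeR adjusted p = 0.00116). Otud7b, a deubiquitinase of the noncanonical pathway, was lower in LN, by a log2 change of -1.10 ± 0.19 (edgeR adjusted p = 0.00165), and these 3 calls between shams held in every omission. Tradd, Csf1 and Ptgs2 also passed between the shams and lost the call in each of the 6 omissions.

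Target genes of NF-kB had the highest list median of the 5 pathway lists. Of 24 tested, 20 rose after MCAO and 4 did not pass, with a median log2 change of 5.20, and 4 rose after PI, with a median of 3.90. Sele, Ccl2, Ccl20, Cxcl1, Cxcl2, Cxcl10, Il6, Il1b and Nos2 averaged under the filter's level of 0.387 CPM in sham LN. They passed the filter with the stroke libraries, so the counts and medians of this list lean on genes admitted where they were high. DESeq2 called 21 after MCAO and 14 after PI, and limma voom 12 after MCAO and 0 after PI. Ccl2, the chemokine for monocytes, had 7831, 340 and 4636 counts in the MCAO libraries, against 1, 2 and 0 counts in sham LN, a ratio of 6300 with a 95% counting interval of 2155 to 30554. In PI it had 1594, 314 and 352 counts, against 12, 0 and 1 in sham PN, a ratio of 148 (95% counting interval 86.5 to 279, edgeR adjusted p = 0.0212). Cxcl1, a chemokine for neutrophils, had 2026, 215 and 710 counts in MCAO and 0 in each sham LN library, at least 1452-fold higher with the sham group set at that limit of 3 counts in sum. Nos2, the inducible nitric oxide synthase, had 3614, 968 and 757 counts in MCAO, against 0, 4 and 0 in sham LN (ratio 1970, 95% counting interval 769 to 7232). Cxcl2, a second chemokine for neutrophils, had 5916, 2543 and 654 counts in MCAO and 1 count over the sham LN libraries. In these 4 genes MCAO replicate 1 was highest, as it was for 8 of the 9 members, but for Nos2 and Cxcl2 the library without a number was lowest, not replicate 2. Mmp9, a matrix-degrading protease carried by neutrophils, averaged 15 ± 15.8 CPM in PI and 0.484 ± 0.289 CPM in sham PN (log2 change 4.94 ± 1.0, edgeR adjusted p = 0.0222). Lcn2, an iron-binding acute-phase protein, averaged 339 ± 461 CPM in PI and 1.95 ± 0.984 CPM in sham PN (log2 change 7.45 ± 1.61, edgeR adjusted p = 0.0279), and Bcl2a1, a survival factor of myeloid cells, 11.9 ± 10.6 CPM in PI and 0.448 ± 0.233 CPM in sham PN (log2 change 4.73 ± 0.81, edgeR adjusted p = 0.014). The targets Vcam1, Ccl20, Bcl2l1 and Tnfaip2, named after their values were seen, were the 4 that did not pass after MCAO. Among them Ccl20, a chemokine, had 319, 3 and 307 counts in the MCAO libraries and 0 in each sham LN library, at least 309-fold higher with the same limit for the shams (edgeR adjusted p = 0.0765). Without PI replicate 1 the log2 change of Lcn2 was 5.23 and did not pass (edgeR adjusted p = 0.059), and those of Ccl2 (5.87), Mmp9 (3.61) and Bcl2a1 (5.02) passed. Without 1 library at a time, 13 to 22 targets were called after MCAO and 0 to 13 after PI, where none was without sham PN replicate 1, 2 or 3. The target list was written with earlier results of these data known, so its count is not independent of them.

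**Figure D5:**
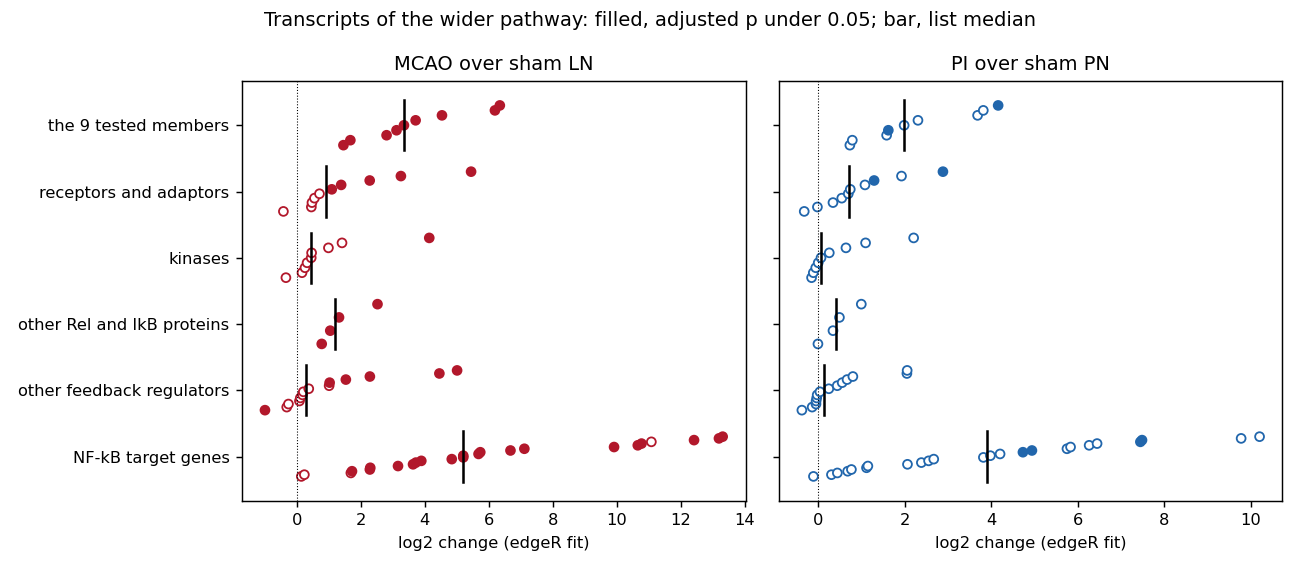
Fitted log2 change of every tested gene in the members and the 5 pathway lists, MCAO over sham LN on the left and PI over sham PN on the right; filled points passed the adjusted threshold and vertical bars are list medians. Medians of the members are 3.35 and 1.99, and those of the targets 5.20 and 3.90. Those of the other 4 lists lie between 0.28 and 1.18 after MCAO. Fitted values of genes near 0 counts in the shams depend on the prior count and are no bounds. Setting only the targets at 0 sham counts to their bound (2 after MCAO, 1 after PI) left the target medians the same. Those bounds lie above the medians, so this step could not move them.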

How the data were processed

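The authors' deposited table holds unscaled read counts, whole numbers for 37209 gene symbols in 12 libraries. Alignment was with HISAT2 to Rnor_6.0, per the submitters' processing notes, and RNA was extracted with Trizol, per the labels' protocols. No source used here gives the counting program, annotation or strandedness. Libraries held 19805815 to 40400676 counts.

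The counts were tested with edgeR 4.0.16 in R 4.3.3. The filter filterByExpr, with a minimum count of 10 and a total of at least 15, kept 17008 genes, and the 9 members kept reached its level of 0.387 CPM in at least 5 of the 6 shams. The quasi-likelihood model, scaled by TMM, held all 12 libraries with the group as its only term. P-values are two-sided and adjusted by Benjamini-Hochberg over all tested genes, with a threshold of 0.05. An SE is the size of the log2 change divided by the root of the F statistic. On counts simulated for MCAO and sham LN (16642 genes, 200 changed), the model called 8 of 55 genes changed 2-fold, 68 of 75 changed 4-fold, 68 of 70 changed 8-fold and 9 unchanged genes. The simulation gave every gene in every group the same fixed spread. It therefore does not give the power for genes that differ more between libraries, as the members did in the stroke groups. A prior count of 2 entered log2 levels of single libraries. Per the labels each stroke was made in 3 rats; for the shams nothing says that libraries came from separate animals, and p-values measure only the spread between these samples. Intervals and floors cover counting error only.

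Members and lists were chosen with earlier results of these data known. Beside the members, up to 4 called genes of each list with the largest change and at least 1 CPM in the higher group could be named. Alternatives were DESeq2 size factors, no filter, 1 CPM in 3 libraries, DESeq2 1.42.0, limma voom (3.58.1), a fit of only the groups compared, a block for the replicate number, all 6 shams as 1 control, and leaving out each library. Promoter sequences are those of RefSeq on GRCr8, a newer build than that of the counts, and were matched by symbol only.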

Additional observations from a re-analysis of the deposited data

How the results depend on the processing

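Members called after MCAO were 9 with DESeq2 size factors, no filter, the filter of 1 CPM, DESeq2, limma voom and all 6 shams as 1 control, and 7 with the compared libraries alone; leaving out each library gave 4 to 9. After PI, where 2 were called, no filter gave 5, DESeq2 6, limma voom 0, all 6 shams as 1 control 4 and the compared libraries alone 3, and leaving out each library gave 0 to 5. Between the shams, where 1 was called, limma voom gave 0 and the sham libraries alone 6, and leaving out each library gave 0 to 1. For the difference between the strokes the count of members was 0 in every fit. The cause of these moves was not tested, other than that fits with a library left out hold fewer samples.

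With a library left out, signs turned in 3 fits for the difference between the strokes and in 1 fit for PI. The difference ranged from -0.39 to 3.06 for Nfkbiz (negative without MCAO replicate 1). For Rel it ranged from -0.46 to 0.072 (0.072 without sham LN replicate 1 and 0.0222 without PI replicate 1). The PI change of Nfkbia ranged from -0.32 to 1.25. Over all genes, the 3163 called after MCAO became 1354 with the compared libraries alone and 1136 to 6170 with a library left out; the 694 called after PI became 1738 by DESeq2, 315 by limma voom, 1512 with all 6 shams and 6 to 965 with a library left out; the 3625 between shams became 6365 with the sham libraries alone; and the 0 for the difference became 238 by DESeq2, 1 with no filter and 0 to 970 with a library left out.

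Whether replicate numbers pair the samples was not settled. Deviations of libraries with the same number correlated at 0.104 and 0.0426 in MCAO and sham LN. In PI and sham PN the values were 0.0483, 0.15 and 0.154. These correlations were low, but every numbered MCAO and PI library correlated best with the sham of its own number. The main model held no term for the number. With a replicate block on the 11 numbered libraries, 6 members were called after MCAO, 2 after PI, 1 between the shams and 0 for the difference, and 1389 genes in all after MCAO. Tnf had 20 counts over 12 libraries, too few to pass the filter.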
